A study of Mus musculus with 93 samples.

Results

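Fibroblast growth factors (FGFs) and their receptors were followed in heart progenitor cells of mouse embryos and of mouse embryonic stem cell spheroids. The 10 genes were listed by name: the ligands Fgf3, Fgf4, Fgf5, Fgf8, Fgf10 and Fgf15 and the receptors Fgfr1, Fgfr2, Fgfr3 and Fgfr4. All 10 were found among the 24514 genes of the read count table. FGF ligands are secreted proteins that bind receptor tyrosine kinases together with heparan sulfate, and the activated receptor signals through adaptor proteins, Ras and the MAP kinases Erk1 and Erk2. Sprouty proteins, dual-specificity phosphatases and Etv transcription factors are induced by the pathway and many of them feed back on it. In the embryo, Fgf8 and Fgf10 are known as ligands of the pharyngeal and second heart field mesoderm, the progenitors that lengthen the heart tube at its poles.

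Each library was made from a pool of 10 sorted cells. GFP+ cells expressed an Hcn4-GFP reporter, a marker of the first heart field, and RFP+ cells carried the Ai9 red label left by Tbx1-Cre, a lineage mark that progeny of Tbx1-expressing cells keep. In vivo cells (5 GFP+ and 4 RFP+ libraries) came from dissected regions of Hcn4GFP; Tbx1Cre; Ai9 mouse embryos, which the sample titles place at embryonic day 8.5 and the design text at 7.75. In vitro cells (38 GFP+ and 46 RFP+ libraries) were sorted on day 5.5 from spheroids of mouse embryonic stem cells, induced with Activin A, Bmp4 and Wnt proteins alone or in combination, with no FGF named among the factors. The stem cells had been kept in medium with Chir99021 and the MEK inhibitor PD98059, or with ESGRO. The labels do not tie wells to embryos or differentiations, so p-values measure the spread between wells, which may be technical.

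Library totals were 712732 to 2525460 reads in vivo GFP+, 1246546 to 1479957 in vivo RFP+, 445071 to 5658882 in vitro RFP+ and 828193 to 4371849 in vitro GFP+, with 1 further in vitro GFP+ well, C9, at 6288 reads. In vivo GFP+ libraries had reads in 6189 to 8302 genes, against 10263 to 13052 in vivo RFP+. In 3 pairs of in vitro RFP+ wells the counts agreed within 1.5 times the sampling noise (chi-square per degree of freedom 1.33 to 1.47). Each pair was summed and counted once, which left 43 in vitro RFP+ replicates. A further 4 similar pairs that differed by more (1.52 to 2.29) stayed separate. All other in vitro RFP+ pairs were at 2.61 or more, so the wells of these 4 pairs may not be independent. On the plate, GFP+ and RFP+ in vitro cells lay in different columns, so plate column and population cannot be told apart. Hcn4 had reads in 5 of 5 in vivo GFP+ and 37 of 38 in vitro GFP+ libraries, against 1 of 4 and 17 of 43 RFP+ replicates, and Tbx1 in 3 of 4 and 39 of 43 RFP+ replicates, against 0 of 5 and 2 of 38 GFP+. In vivo GFP+ libraries differed from spheroid GFP+ libraries in their heart muscle markers, whose 10 genes summed to 16004 to 46318 counts per 1000000 reads (CPM) in vivo and to 0 to 858 CPM in vitro. The median sum was 47.3 CPM in spheroid GFP+ and 42.2 CPM (15.1 to 121) in spheroid RFP+ replicates. The 7 second heart field markers were all detected in vivo RFP+ and summed to 290 to 333 CPM there. In vivo GFP+ they summed to 64.2 to 280 CPM, with 3 detected (Isl1, Six2 and Tcf21) and Tbx1, Msc, Lhx2 and Ebf2 at 0. In spheroids they summed to 74.5 to 211 CPM in RFP+ (all 7 detected) and 0 to 174 CPM in GFP+ replicates (Msc at 0). In pools of cells, fewer cells of a type and less RNA per cell cannot be told apart.

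The 6 ligands differed in how widely they were found. Per well, reads of 0 to 1 of the 6 ligands were seen in vivo GFP+, of 3 to 6 in vivo RFP+, of 3 to 6 (median 5) in vitro RFP+ and of 0 to 6 (median 4) in vitro GFP+, where the 0 was well C9. Among receptors, Fgfr1 had a read in each of the 43 in vitro RFP+ and 38 in vitro GFP+ replicates, and Fgfr4 reached no more than 3.04 CPM in any library. Levels below are CPM, and fold changes are log2 values in which positive means higher in RFP+ cells or, between sources, higher in vitro. Calls were made with edgeR's quasi-likelihood test at an adjusted p (Benjamini-Hochberg, over all genes tested) under 0.1. Two-sided permutation tests of mean log2 CPM were run for each of the 10 genes in 4 comparisons, also where a gene had too few reads for edgeR's filter, and the p-values of these 40 tests are not adjusted. With 5 against 4 libraries the smallest exact permutation p is 0.00794.

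**Figure D1:**
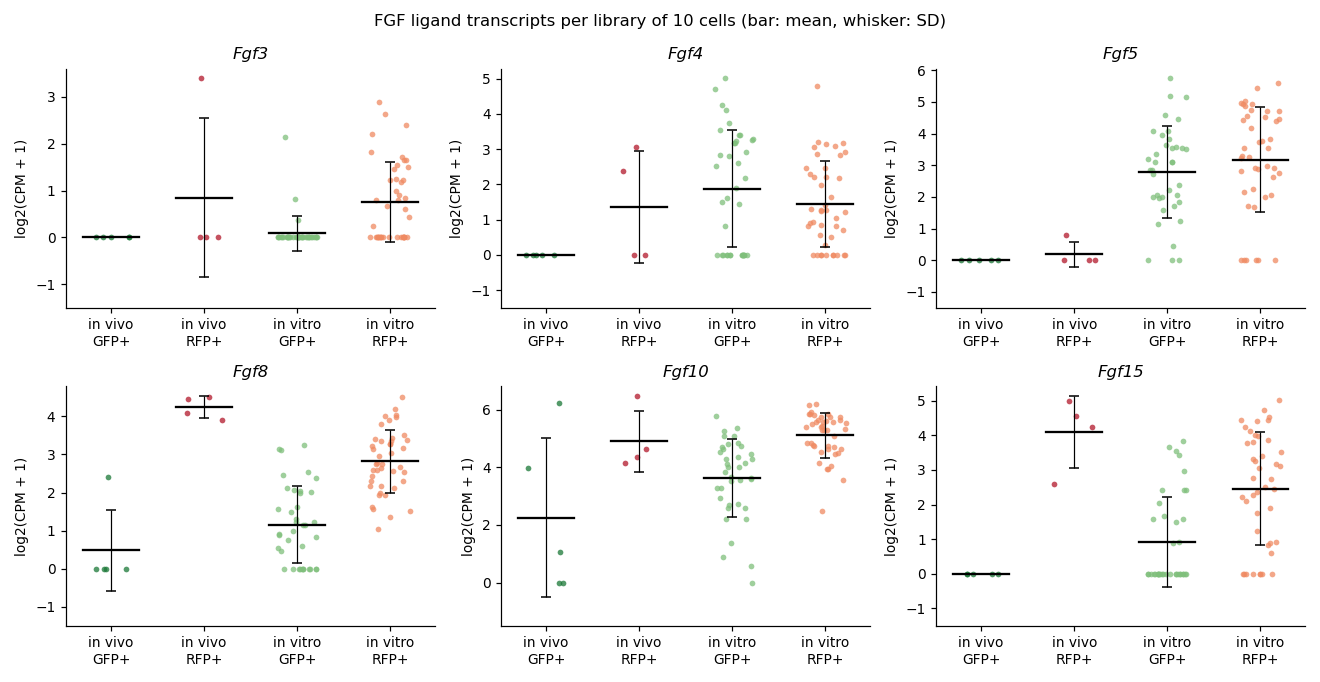
Levels of the 6 FGF ligands per library, as log2(CPM + 1) on the vertical axis, in the 4 groups. Each point is 1 library or summed pair, the bar is the mean and the whisker the SD. Fgf8 and Fgf15 of the 4 in vivo RFP+ libraries lie above the 5 in vivo GFP+ libraries, and Fgf10 is spread widely in vivo.

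In embryos, the ligand Fgf8, which the second heart field needs for outflow tract growth, was at 16.0, 14.1, 22 and 20.8 CPM in the 4 RFP+ libraries. In the 5 GFP+ libraries it was at 0, 0, 0, 0 and 4.28 CPM. The groups did not overlap, and the single GFP+ value rested on 4 reads. Fgf8 passed edgeR's filter only through RFP+ libraries, so a call lower in RFP+ cells was not possible. The fitted log2 difference was 4.30 with a standard error (SE) of 1.56 and did not pass edgeR's test (adjusted p = 0.143), whereas the exact permutation p was 0.0159. It passed edgeR's test without the GFP+ library that held the 4 reads (adjusted p = 0.0128), which leaves GFP+ cells at 0 by construction, and in none of the other 8 fits without 1 library (adjusted p = 0.135 to 0.278).

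Fgf15, the mouse counterpart of human FGF19 and an FGF that circulates or diffuses with little heparan sulfate binding, showed the same split. It had 30.6, 22.5, 17.7 and 5.02 CPM in the RFP+ libraries and no read in any of the 5 GFP+ libraries. The groups did not overlap, and the mean of 19.0 ± 10.7 CPM (SD, n = 4) was at least 7.37-fold higher than the 2.57 CPM that 3 reads per library would give in GFP+ cells. Such limits cover counting error only, since the reads carry no molecular identifiers and were amplified by PCR. Fgf15 had too few libraries above the minimum count of edgeR's filter, and its exact permutation p was 0.00794, the smallest that the design allows. Tested without the filter it was called (adjusted p = 0.0435), as the only one of the 10 genes, against 10.8% of 15111 genes higher and 2.4% lower in RFP+ cells. Over the 15111 genes with a read in vivo, 11.8% were higher in RFP+ cells with no overlap in CPM, and 2.04% lower, beside 2 of the 10 genes here. Summed markers of several other tissues were also higher in RFP+ than in GFP+ embryo libraries. Paraxial and nascent mesoderm markers summed to 46.4 to 114 CPM in RFP+ libraries (5 of 8 detected, with Mesp1, Tbx6 and Msgn1 at 0), endoderm markers to 3.58 to 203 CPM (6 of 7, with Afp at 0) and neural markers to 16.2 to 67.0 CPM (4 of 5, with Neurog2 at 0). In GFP+ libraries all 8 mesoderm and all 7 endoderm markers were at 0, and neural markers summed to 0 to 7.54 CPM with 1 of 5 detected. Endothelium markers (17.7 to 158 CPM in RFP+, 0 to 89.3 in GFP+) and blood markers (0 to 1154 and 0 to 1.07 CPM) overlapped between the groups. The part of these markers in the Fgf8 and Fgf15 levels was not tested.

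Fgf10, a ligand of Fgfr2 isoforms and a known reporter gene of the second heart field, did not separate the embryo populations. Its GFP+ libraries were at 1.08, 14.7, 74.4, 0 and 0 CPM. Its RFP+ libraries were at 24, 16.9, 19.4 and 87.4 CPM. One library in each group stood far above the rest, and the groups overlapped. The log2 difference of 0.94 (SE 1.75, adjusted p = 0.923, edgeR) was smaller than its error, and the exact permutation p was 0.103. The value rested on those libraries, at 3.14 without the GFP+ one and 0.08 without the RFP+ one, neither of them called.

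The other ligands were near the limit of detection in the embryo. Fgf3, a ligand of the pharyngeal region and otic placode, had 13 reads, all in 1 RFP+ library (9.47 CPM). Fgf4, a ligand of the inner cell mass and primitive streak, had reads in 2 of 4 RFP+ libraries, at 7.29 and 4.22 CPM. Its RFP+ mean of 2.88 CPM was at least 1.12-fold the level of 3 reads per GFP+ library. Fgf5, a marker of the primed pluripotent epiblast, had 1 read, in an RFP+ library. None of the 3 had a read in the 5 GFP+ libraries, where 3 reads per library would give 2.57 CPM, and their exact permutation p-values were 0.444, 0.167 and 0.444. At this depth a difference in Fgf3, Fgf4 or Fgf5 was not detectable in vivo.

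**Figure D2:**
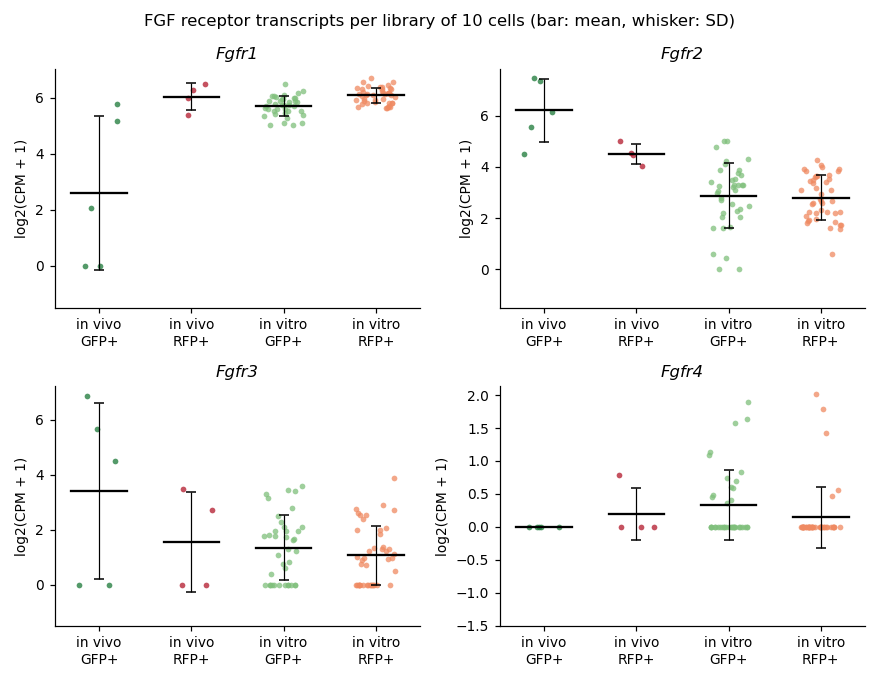
Levels of the 4 FGF receptors per library, as log2(CPM + 1) on the vertical axis, in the 4 groups, with the mean (bar) and SD (whisker). Fgfr1 is near 6 on this scale in all groups but in vivo GFP+, where its 5 libraries run from 0 to 53.2 CPM, and Fgfr2 is highest in vivo GFP+.

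Among receptors, Fgfr1 had the higher mean in RFP+ embryo cells and Fgfr2 and Fgfr3 in GFP+ embryo cells, none of them called by edgeR. Fgfr1, the main receptor of early mesoderm, was at 61.9, 88.6, 40.5 and 76.7 CPM in RFP+ libraries. In GFP+ libraries it was at 0, 53.2, 0, 35 and 3.21 CPM. A single GFP+ library exceeded the lowest RFP+ one, and the log2 difference of 1.84 (SE 1.51) did not pass edgeR's test (adjusted p = 0.715), with an exact permutation p of 0.0635. Without that GFP+ library it was 2.79 and again not called.

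Fgfr2, whose epithelial and mesenchymal splice forms bind different ligands, was higher on average in GFP+ cells, at 68.9, 46.3, 161, 21.9 and 175 CPM. RFP+ libraries were at 21.1, 30.9, 15.2 and 22.2 CPM. The groups overlapped only through the lowest GFP+ library. The log2 difference was -2.15 (SE 0.94), with an adjusted p of 0.265 by edgeR and an exact permutation p of 0.0476 (0.0556 with CPM taken from total counts in place of scaled library sizes). DESeq2 called it, at -2.39 (adjusted p = 0.0172).

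Fgfr3, a receptor with a known role in skeletal and neural tissue, was at 0, 50.2, 115, 21.5 and 0 CPM in GFP+ libraries. In RFP+ libraries it was at 10.2, 5.62, 0 and 0 CPM. Libraries with no read occurred in both groups, and the log2 difference of -3.28 (SE 2.14) did not pass (adjusted p = 0.581, edgeR, exact permutation p = 0.349). Fgfr4 had 1 read in vivo, in an RFP+ library (exact permutation p = 0.444). The Fgfr2 and Fgfr3 levels of GFP+ cells stood beside heart muscle marker sums of 16004 to 46318 CPM, against 710 to 1706 CPM in RFP+ cells. The part of muscle cells in these levels was not tested.

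Of all 10 genes, 5 passed the filter in vivo and 0 were called by edgeR, against a background of 6.21% of 8503 genes higher and 3.88% lower in RFP+ cells. At an unadjusted p under 0.05 the same fit held 1377 genes. By DESeq2, which called 1238 genes higher and 631 lower of 11199, the called genes of the set were Fgf8, Fgf15 and Fgfr2. With DESeq2 size factors in edgeR, the genes called in all were 426 higher and 435 lower, in place of 528 and 330, and again 0 of the 10 were among them. That scaling moved the median log2 difference of all genes from 0.09 to -0.13.

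Promoter sequence is shown for Fgf10, Fgfr2 and Fgfr3. The stretch from 250 bases before to 50 after the start was read for the receptors with the higher means in GFP+ embryo cells and for Fgf10, the ligand called in spheroids. The sequences are RefSeq's for GRCm38.p6, in which 7 of the 10 genes had an entry, given 5′ to 3′ on the gene's strand. Capitals mark matches, on either strand, to a T-box half-site (AGGTGT), a TCF/LEF motif (CTTTGAT) or GGCGCC, which reads the same on both strands.
Fgf10 (chr13:118714449-118714748, plus strand): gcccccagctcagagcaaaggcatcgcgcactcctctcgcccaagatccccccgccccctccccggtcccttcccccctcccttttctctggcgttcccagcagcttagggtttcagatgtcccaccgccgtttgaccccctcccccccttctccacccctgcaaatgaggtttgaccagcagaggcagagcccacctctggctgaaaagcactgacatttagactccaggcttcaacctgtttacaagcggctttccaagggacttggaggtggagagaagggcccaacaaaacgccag
Fgfr2 (chr7:130266759-130267058, minus strand): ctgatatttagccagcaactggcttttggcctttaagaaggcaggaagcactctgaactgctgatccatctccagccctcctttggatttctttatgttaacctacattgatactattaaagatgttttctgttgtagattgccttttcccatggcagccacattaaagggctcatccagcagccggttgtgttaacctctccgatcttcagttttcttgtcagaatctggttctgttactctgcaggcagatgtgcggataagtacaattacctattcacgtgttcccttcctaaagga
Fgfr3 (chr5:33721474-33721773, plus strand): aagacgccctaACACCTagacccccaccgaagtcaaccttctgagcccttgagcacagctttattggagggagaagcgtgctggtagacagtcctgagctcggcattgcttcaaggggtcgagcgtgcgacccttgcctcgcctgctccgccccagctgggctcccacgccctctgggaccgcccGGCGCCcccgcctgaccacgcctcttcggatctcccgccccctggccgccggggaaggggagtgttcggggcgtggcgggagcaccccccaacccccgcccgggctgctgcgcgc
No match was found in the Fgf10 and Fgfr2 windows, which says only that these letters are not there. The Fgfr3 window shown held the T-box half-site from position 12 and GGCGCC from position 186, counted from the 5′ end. A second RefSeq promoter of Fgfr3 (chr5:33722056-33722355, not shown) held no T-box half-site and 2 matches to GGCGCC, at 73% GC. The half-site was present in 13.7%, CTTTGAT in 3.73% and GGCGCC in 11.9% of 32851 promoters of the same length. A match is a description of letters and not a bound site. The GC share of these windows was 60.7% for Fgf10, 43.7% for Fgfr2 and 69.7% for Fgfr3.

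In spheroids, Fgf10 was higher in RFP+ cells. It had reads in 43 of 43 RFP+ replicates (lowest 4.56, median 39.7, highest 73.0 CPM) and in 37 of 38 GFP+ libraries (0, 14.1 and 54.2 CPM). The ranges overlapped, while the means of 37.8 ± 16.5 and 16.2 ± 12.4 CPM (SD) differed by a log2 value of 1.16 (SE 0.20, adjusted p = 1.96e-07, edgeR). By permutation (100000 resamples) its p was 1e-05, which is the lowest value possible.

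Fgf8 had a read in every RFP+ replicate (lowest 1.06, median 5.70, highest 22 CPM) but in only 27 of 38 GFP+ libraries (0, 1.09 and 8.47 CPM). Its difference in mean log2 CPM was 1.62 (SE 0.20, permutation p = 1e-05). Fgf8 counts reached 57 per well, but too few replicates passed the minimum count of edgeR's filter. Without that filter it was called at 1.87 (adjusted p = 1.27e-07). Fgf15 followed, with reads in 35 of 43 RFP+ replicates (0, 5.65 and 31.2 CPM) and 15 of 38 GFP+ libraries (0, 0 and 13.2 CPM). The difference in mean log2 CPM of Fgf15 was 1.49 (SE 0.31, permutation p = 3e-05). Fgf3 was the least abundant of the 4, with reads in 24 of 43 RFP+ replicates, at no more than 6.38 CPM, and in 3 of 38 GFP+ libraries (difference 0.63, SE 0.14, permutation p = 1e-05). The means of Fgf3, Fgf8, Fgf10 and Fgf15 were all higher in RFP+ than in GFP+ spheroid cells, by more than the spread between wells gives in the permutation test.

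Fgf4 and Fgf5, ligands of pluripotent and primed cells, did not share that pattern. Fgf4 had reads in 33 of 43 RFP+ replicates (0, 1.37 and 26.8 CPM) and in 24 of 38 GFP+ libraries (0, 3.16 and 31.5 CPM). Its difference in mean log2 CPM was -0.44 (SE 0.32, permutation p = 0.167), although without the filter edgeR called it lower in RFP+ cells, at -1.01 (adjusted p = 0.0473). The summed pluripotency markers moved with it, with a median of 30.3 CPM (8.70 to 562) in RFP+ and 155 CPM (53.5 to 1571) in GFP+ replicates over 7 of 7 detected markers, and their part in the Fgf4 level was not tested. Fgf5 was at 0, 8.81 and 47.5 CPM in RFP+ and at 0, 6.87 and 53.0 CPM in GFP+ replicates, with a log2 difference of 0.41 (SE 0.33, adjusted p = 0.249, edgeR).

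**Figure D3:**
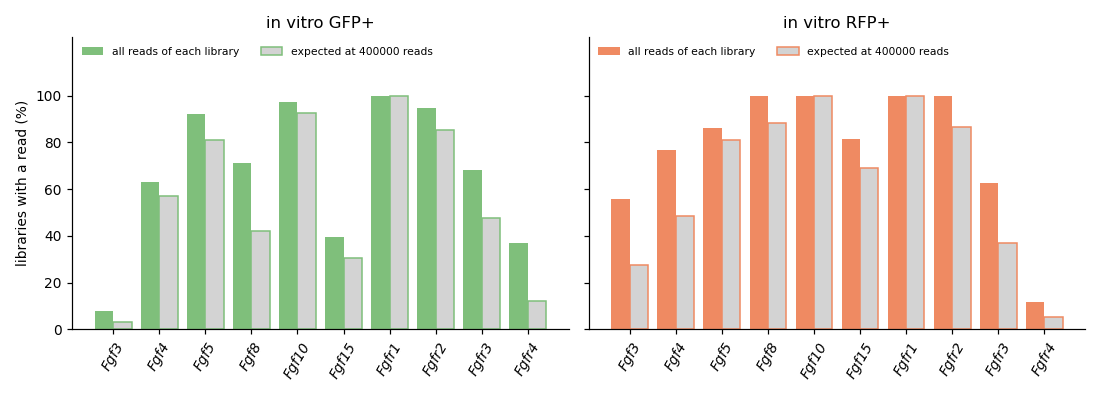
Share of in vitro libraries with at least 1 read of each gene, in percent, as measured (coloured bars) and as computed for libraries of at least 400000 reads thinned to that depth (grey bars). At the common depth Fgf8 is expected in 42.0% of GFP+ and 88.1% of RFP+ libraries.

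For Fgf3, Fgf8, Fgf10 and Fgf15 the RFP+ share of libraries with a read was the higher one both as measured and at a common depth. At 400000 reads per library, with well C9 left out as too shallow, Fgf3 was expected in 3.21% of GFP+ and 27.8% of RFP+ libraries, and Fgf8 in 42.0% and 88.1%. Fgf15 was expected in 30.7% and 69.0%, and Fgf10 in 92.4% and 99.8%. For Fgf5 the expected shares were 81.2% and 81.0%. For Fgf4 the order turned with depth, from 63.2% of GFP+ and 76.7% of RFP+ libraries as measured to 56.9% and 48.4% at the common depth.

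The receptors separated the spheroid populations less. Fgfr1 was at 31.4, 52.5 and 87.7 CPM in GFP+ and at 47.9, 67.1 and 102 CPM in RFP+ replicates, and it was called higher in RFP+ cells at a log2 difference of 0.35 (SE 0.07, adjusted p = 9.57e-06, edgeR). The size is small beside that of Fgf10, and the ranges overlapped over most of their length. Fgfr2 was at 0, 7.92 and 31.1 CPM in GFP+ and 0.525, 5.36 and 18.4 CPM in RFP+ replicates, and did not pass (log2 difference -0.40, SE 0.24, adjusted p = 0.134, edgeR). Fgfr3 had reads in 26 of 38 GFP+ and 27 of 43 RFP+ replicates, with medians of 1.78 and 0.941 CPM (permutation p = 0.272). Fgfr4, a receptor of endoderm and liver that binds Fgf15, had reads in 14 of 38 GFP+ and 5 of 43 RFP+ replicates, at most 3.04 CPM, with a permutation p of 0.107. Endoderm markers summed to 135 to 377 CPM in GFP+ and 34 to 156 CPM in RFP+ replicates, with all 7 markers detected, and their part in the Fgfr4 reads was not tested.

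In the spheroid comparison 4 of the 10 genes passed the filter and 2 were called, Fgf10 and Fgfr1, both higher in RFP+ cells. The background was 38% of 9899 genes higher and 39.7% lower, so a call is common in this comparison. Without the filter 6 of 10 were called, 5 higher (Fgf3, Fgf8, Fgf10, Fgf15, Fgfr1) and 1 lower (Fgf4), against 24% higher and 35.5% lower of 21827 genes. DESeq2 called the same 6, beside 4835 genes higher and 5901 lower of 16322. Paraxial and nascent mesoderm markers summed to 148 to 304 CPM in RFP+ and 0 to 96.8 CPM in GFP+ replicates over 8 of 8 detected markers, beside the ligand levels, and their part was not tested.

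Whether the embryo difference between populations differed from the spheroid difference was tested on the difference of the log2 fold changes. It was -0.22 for Fgf10 (adjusted p = 0.993), 1.49 for Fgfr1 (adjusted p = 0.867) and -1.75 (SE 0.97) for Fgfr2 (adjusted p = 0.607), so none of the 3 genes that passed the filter in both sources was called, against 5.25% of 8167 genes. Without the filter none of the 10 was called, against 0.77% of 15069 genes. The lowest unadjusted p-values were those of Fgf4 (6.08, p = 0.0184, adjusted p = 0.160) and Fgf15 (5.86, p = 0.0307, adjusted p = 0.186), both of which had no read in vivo GFP+, so that these fitted sizes depend on the prior count and are no bound.

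Spheroid cells were then set beside embryo cells of the same reporter. These comparisons use the embryo libraries again and are not independent of those above. Within each reporter, no plate column held wells of both sources, so any column effect would be counted as a source effect. The median number of genes with reads was 6830 in vivo and 13689 in vitro for GFP+ libraries. For RFP+ libraries it was 12232.5 in vivo and 12948.5 in vitro. The part of plate column and of gene detection in the calls below was not tested. In GFP+ cells Fgf5, at 9.79 ± 11.2 CPM (SD, n = 38) in vitro, was at least 3.81-fold higher than the level of 3 reads per in vivo library, and Fgf4, at 5.70 ± 7.34 CPM, at least 2.22-fold. Both were called (adjusted p = 6.10e-05 and 0.00393, edgeR), as was Fgf15 (adjusted p = 0.0287), whose in vitro mean of 2.06 CPM lay under that floor and whose exact permutation p was 0.178. Pluripotency markers moved with these ligands, from a median sum of 0 CPM (highest 31.3, with 2 of 7 markers detected and Pou5f1, Sox2, Zfp42, Dppa5a and Esrrb at 0) in vivo GFP+ to 155 CPM (53.5 to 1571, all 7 detected) in vitro GFP+, and their part was not tested. Fgfr1 was called higher in vitro at a log2 value of 1.55 (SE 0.43, adjusted p = 0.00159), to be read against a median of 0.67 over all genes in this comparison (0.54 when scaled by total counts). Without 1 in vivo library it was 1.19 to 2.43, the highest without replicate 2 (53.2 CPM).

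Fgfr2 and Fgfr3 went the other way in GFP+ cells. Fgfr2 fell by 3.18 on the log2 scale in vitro (SE 0.45, adjusted p = 2.76e-08, edgeR), from a mean of 94.7 ± 69.3 CPM (SD, n = 5) to 9.04 ± 7.80 CPM (SD, n = 38). Fgfr3 fell by 3.67 (SE 0.69, adjusted p = 9.18e-06), from 37.4 ± 48.2 to 2.55 ± 3.13 CPM, although 2 of its 5 in vivo libraries had no read. Its exact permutation p was 0.00909, and 0.0567 with a smaller prior count of 0.5. Fgf10 was not called (0.06), and that value depended on 1 in vivo library of 74.4 CPM, without which it was 1.99 (adjusted p = 0.0283). In all, 6 of the 7 genes that passed the filter were called, 4 higher and 2 lower in vitro. The background was 48.3% of 11822 genes higher and 19.7% lower. Fgf4, Fgf5 and Fgf15 had no read in vivo GFP+ and passed the filter only through in vitro libraries, so a lower call was not possible for them. Without the filter Fgfr4 was added to the called genes (adjusted p = 0.045), where 42.1% of 21087 genes were higher and 13.7% lower. Its in vitro mean of 0.358 CPM lay under the floor.

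Between sources in RFP+ cells, Fgf8 and Fgfr2 were lower and Fgf5 higher in vitro. Fgf8 fell by 1.33 on the log2 scale in vitro (SE 0.41, adjusted p = 0.00896, edgeR), from 18.2 ± 3.77 CPM (SD, n = 4) to 7.26 ± 4.74 CPM (SD, n = 43). Fgfr2 fell by 1.66 (SE 0.42, adjusted p = 0.00128), from 22.4 ± 6.48 to 7.20 ± 4.65 CPM. Fgf5 was called higher in vitro (adjusted p = 0.00143), with 1020 reads against 1 in vivo, a ratio of 73.5 after scaling to depth (95% counting interval 13.2 to 2904).

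The level of Fgfr1 in RFP+ cells was 67.7 ± 13.5 CPM in vitro and 66.9 ± 20.7 CPM in vivo, a log2 difference of -0.01 (SE 0.16, adjusted p = 0.965, edgeR). For Fgf10 the means were 37.8 and 36.9 CPM (0.00, SE 0.38), and for Fgf4 3.00 and 2.88 CPM (-0.03, SE 0.96). The sign of each of these 3 values changed under other scalings or without 1 of the in vivo libraries, and without the highest in vivo library Fgf10 was called higher in vitro, at 0.90 (adjusted p = 0.0993). Fgf15 was at -1.26 (SE 0.72, adjusted p = 0.174). Of the 7 genes that passed the filter 3 were called, 1 higher and 2 lower in vitro, against 21.9% higher and 20.2% lower of 11127 genes. Fgf5, the higher one, passed the filter only through in vitro libraries.

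**Figure D4:**
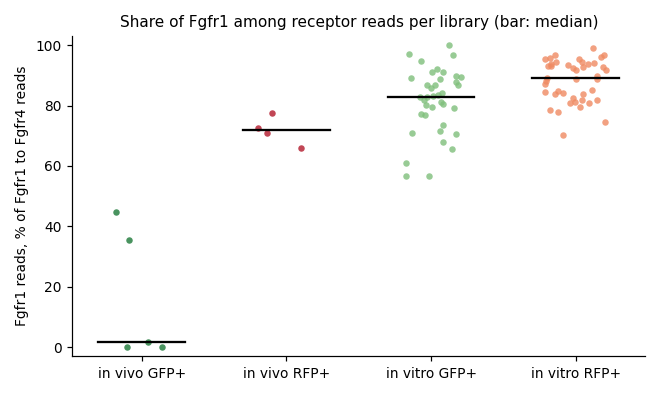
Share of Fgfr1 among the reads of the 4 receptors in each library, in percent (vertical axis), with the median of each group as a bar. The in vivo GFP+ libraries lie between 0 and 44.6%, under all libraries of the other 3 groups.

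The mix of receptors was described as the share of Fgfr1 among reads of the 4 receptors in each library, with no test. In vivo GFP+ libraries had 0, 35.5, 0, 44.6 and 1.80%. In vivo RFP+ libraries had 65.9, 70.8, 72.7 and 77.5%. In vitro the share was 70.1 to 99.2% (median 89.0) in RFP+ and 56.6 to 100% (median 83) in GFP+ replicates, the 100% including well C9 with its 1 receptor read. In the embryo GFP+ cells the reads of Fgfr2, Fgfr3 and Fgfr4 together outnumbered those of Fgfr1 in every library, and in the other 3 groups in none. In vivo GFP+ libraries also differed more among themselves, with a median chi-square per degree of freedom of 76.3 between pairs, against 12.8 in vivo RFP+. Fgfr1 and Fgfr3 each had a read in only 3 of these 5 GFP+ libraries. The share is not corrected for transcript length.

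Levels of different genes were compared per kilobase of exon (CPM per kilobase, union of all annotated exons). In vivo RFP+ the order was Fgf8 (13.5 ± 2.79, SD), Fgf10 (8.03 ± 7.34), Fgfr1 (6.78 ± 2.10), Fgf15 (6.20 ± 3.50) and Fgfr2 (2.17 ± 0.628), and each of the first 4 lay within the larger SD of its neighbour. In vivo GFP+ Fgfr2 (9.17 ± 6.71) stood first, followed by Fgfr3 (5.22 ± 6.73), Fgf10 (3.92 ± 6.98) and Fgfr1 (1.85 ± 2.48), and each lay within the larger SD of its neighbour. In vitro RFP+ Fgf10 (8.21 ± 3.58), Fgfr1 (6.86 ± 1.37), Fgf5 (5.43 ± 4.89) and Fgf8 (5.38 ± 3.51) were each within the larger SD of the pair from their neighbours. In vitro GFP+ Fgfr1 (5.31 ± 1.26), Fgf5 (3.92 ± 4.46) and Fgf10 (3.52 ± 2.70) led. With the longest transcript as the length, the receptors moved up, Fgfr1 to 13.3 CPM per kilobase in vivo RFP+, past Fgf10 at 8.98, and Fgfr2 to 21.4 in vivo GFP+.

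The positions of the genes bear on what a read count can hold. Fgf3 (chr7:144838083-144844436), Fgf4 (chr7:144847367-144865243) and Fgf15 (chr7:144896531-144900953) are neighbours on the plus strand of GRCm38 chromosome 7, as the GENCODE annotation gives them. Reads were counted per gene with no strand setting given in the sources used here. In the GENCODE annotation Fgf10, Fgf15, Fgfr1 and Fgfr3 overlap antisense or unconfirmed transcripts. Whether reads of these transcripts entered the counts cannot be told. Fgfr2 (chr7:130162451-133123350, minus strand) spans many other genes in that annotation, which also gave its union exon length of 10328 bases.

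The rest of the pathway was described by lists. Of 16 other FGF ligands none had enough reads for the test in vivo and 1 had in vitro, where it was not called. Of 27 coreceptors, binding proteins and heparan sulfate enzymes, 18 were tested in vivo, with 1 higher and 1 lower in RFP+ cells and a median log2 difference of 0.64, beside 0.09 over all genes. Sdc4, a syndecan that carries heparan sulfate, had 1 read in the 5 GFP+ libraries and 176 in the 4 RFP+ libraries (14.4 to 40.1 CPM), a ratio of 233 after scaling to depth (95% counting interval 41.3 to 9264, adjusted p = 0.0172, edgeR). Gpc3, a glypican, was lower in RFP+ cells, at a mean of 902 against 2363 CPM (log2 difference -1.43, SE 0.27, adjusted p = 0.00665).

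In spheroids 21 of the coreceptor list were tested, with 10 higher and 4 lower in RFP+ cells (median 0.16, against -0.01 over all genes), beside 38% higher and 39.7% lower of all 9899 genes. Flrt2, a membrane protein that binds FGF receptors, rose from 2.80 to 32.8 CPM (3.46, SE 0.25). Fgfbp1, a carrier that releases FGFs from the matrix, fell from 37.7 to 3.71 CPM (log2 difference -3.32, SE 0.36). Sdc4 was lower in RFP+ spheroid cells, at 46.4 against 182 CPM (-2.03, SE 0.09), the opposite of the embryo. That difference between sources was called for Sdc4 (adjusted p = 0.0408) and, in the other direction, for Gpc3 (adjusted p = 0.0202), against 5.25% of 8167 genes. Sdc4 passed the filter in vivo only through RFP+ libraries. Its embryo value rested on 1 GFP+ read, so that fitted size is no bound.

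Among 22 genes of signal transduction from the receptor to Erk, 20 were tested in vivo and 1 was called, Sos2, a Ras activator with 1 read in GFP+ and 75 reads in RFP+ libraries, a ratio of 99.4 after scaling to depth (95% counting interval 17.3 to 3977, adjusted p = 0.00901). The list's median was 0.17. In vitro 21 were tested, with 9 higher and 5 lower in RFP+ cells and a median of 0.03, again beside 38% and 39.7% of all genes. Gab1, an adaptor of the receptor complex, was at 64.9 CPM in RFP+ and 266 CPM in GFP+ replicates (-2.07, SE 0.11). The kinases Mapk3 (Erk1, 1.17, SE 0.07) and Map2k1 (Mek1, 0.65, SE 0.08) were higher in RFP+ cells. In the embryo the log2 differences of Gab1, Mapk3 and Map2k1 were 0.18, 1.35 and -0.64, none of them called. Their differences between sources were not called (adjusted p = 0.757, 0.991 and 0.259). The embryo and spheroid log2 differences of Sos2, 6.05 and -0.13, themselves differed (adjusted p = 0.0480), where 5.25% of 8167 genes were called. Sos2 passed the filter in vivo only through RFP+ libraries. Its embryo value rested on 1 GFP+ read, so that fitted size is no bound.

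Of 13 feedback targets 7 were tested in vivo and 0 were called, at a median of 1.25. In vitro 9 were tested and 8 called, 4 in each direction, with a median of -0.03, where 38% of all genes were higher and 39.7% lower. Spry4 was the one with the largest difference, at 19.3 CPM in RFP+ and 7.03 CPM in GFP+ replicates (1.38, SE 0.19, adjusted p = 7.36e-10, edgeR). Dusp4, a nuclear phosphatase of Erk, was lower in RFP+ cells, at 6.71 against 10.9 CPM (-0.76, SE 0.26, adjusted p = 0.00677), as was Spry1 by a small margin (-0.36, SE 0.20, adjusted p = 0.0892). The embryo means of these genes went the other way. In RFP+ against GFP+ cells they were 17.8 and 84.2 CPM for Spry4, 2.15 and 1.31 for Dusp4, and 14.1 and 2.51 for Spry1. The difference between sources was not called for Spry4 (adjusted p = 0.402) or Spry1 (adjusted p = 0.623).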

How the data were processed

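RNA of 10-cell pools was amplified with a template-switching protocol and sequenced after Tn5 tagmentation. Per the submitters' processing notes the authors used Trimmomatic 0.36, HISAT2 2.0.4 and featureCounts 1.5.2 of Subread on mm10 (GRCm38), and they deposited read counts per gene for 93 libraries and 24514 genes, of which 2645 had no read. The strand setting is not given in the sources used here. CPM was computed from these counts and library totals scaled by TMM normalization factors over all replicates.

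Counts were fitted with edgeR 4.0.16 (R 4.3.3, TMM, a minimum count of 10 and total of 15, quasi-likelihood), with DESeq2 1.42.0 as an alternative, separately for each comparison. Log2 CPM for the permutation tests used a prior count of 2. Both tests were checked on simulated data. The difference between sources was tested with 7 degrees of freedom. The genes, the lists and the tests were chosen with earlier results of these data known. All 10 genes were named. From each list, at most 3 called genes of largest difference per population comparison were named. Alternatives were scaling, filter, prior count, single libraries, well pairs, plate row and depth. One gene of similar pattern is not reported here.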

Additional observations from a re-analysis of the deposited data

Results flagged for a closer look

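Dixon's test was applied to the values of each gene in the 5 in vivo GFP+ and 4 in vivo RFP+ libraries, in 15 groups that had any read, and 6 held a library far from the others, where chance gives about 1 in 20. RFP+ replicate 1 stood apart for Fgf3, at 9.47 CPM, and for Fgf5 and Fgfr4, at 0.729 CPM each, which is 1 read. GFP+ replicate 5 was alone with reads of Fgf8 (4.28 CPM). For Fgf10, GFP+ replicate 3 was at 74.4 CPM and RFP+ replicate 4 at 87.4 CPM. Groups in which a single library has any read are flagged whatever its level. No cause of these values was tested.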

How the results depend on the processing

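No paired analysis was possible because the labels give wells no replicate number that groups share. Of the 10 genes, 0 were called in vivo in the chosen fit, 1 without the filter on low counts (Fgf15) and 3 by DESeq2. Leaving out 1 library gave 0 to 1, namely Fgf8 without GFP+ replicate 5 and Fgf15 without RFP+ replicate 4 (adjusted p = 0.0361). RFP+ replicate 4 held the lowest RFP+ value of Fgf15 (5.02 CPM), and Fgf15 passed the filter only without it. In these fits Fgf8 and Fgf15 passed the filter only through RFP+ libraries, so a call lower in RFP+ cells was not possible. Over all genes, 858 calls in vivo became 2000 without the filter and 1869 by DESeq2, and 613 to 1061 without 1 library. In vitro, 2 of the genes became 6 without the filter and by DESeq2, and 7687 calls became 12981 without the filter and 10736 by DESeq2. Leaving out 1 in vivo library gave 6 to 7 of the genes and 8488 to 8617 calls in GFP+ cells, and 3 to 4 and 4035 to 4394 in RFP+ cells.

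Reversed signs were limited to values within their error. For Fgf10 between sources in GFP+ cells, 0.06 became -0.035 with DESeq2 size factors, -0.20 with total counts, -0.051 by DESeq2 and -0.29, -0.04, -0.31 and -0.31 without in vivo GFP+ replicates 1, 2, 4 and 5, but 1.99 without replicate 3. In RFP+ cells Fgf10 became -0.15, -0.23 and -0.19 without in vivo replicates 1, 2 and 3, 0.90 without replicate 4 and -0.013 with no wells summed, a setting added after the data were seen. Fgf4 there became 0.025 with DESeq2 size factors, 0.013 without the filter, 0.064 by DESeq2 and 0.96, 0.22 and -0.42 without in vivo replicates 1, 2 and 4. Fgfr1 became 0.038 with DESeq2 size factors, 0.041 with total counts, 0.019 without the filter, 0.036 by DESeq2 and 0.16, 0.08 and -0.17 without in vivo replicates 2, 4 and 3. In mean log2 CPM with a prior count of 0.5, Fgfr2 in vitro became 0.012 and Fgf3 between sources in RFP+ cells 0.18. The cause was not tested.

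Of the other fold changes of the genes, 251 kept their sign and their side of the threshold. Fgfr4, called higher in vitro in GFP+ cells without the filter, was not called by DESeq2 (adjusted p = 0.442). Leaving out well C9, summing all 7 similar RFP+ pairs, libraries of at least 1000000 reads and plate row as a covariate left the in vitro count at 2. Depth limits Fgf3, Fgf4, Fgf5 and Fgfr4 in vivo, where 3 reads are 2.57 CPM in GFP+ and 2.24 CPM in RFP+ libraries.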

Other observations

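For each gene with a read in at least 50% of the deeper in vitro libraries, the 3 genes most like it across 80 in vitro replicates were found among 8772 genes with a mean of at least 10 CPM, as Pearson's r of log2 CPM after each population's mean was subtracted. The replicates share plate and depth effects, so the values are a description. Fgf4 was most like Tdh (0.61), Ooep (0.56) and Dppa5a (0.51), the last a gene of pluripotent cells. Fgf5 was most like Emb (0.52), Mtmr7 (0.51) and Car4 (0.49). Fgf10 was most like Pdgfra (0.53), the PDGF receptor of mesoderm, Ube2v2 (0.51) and Scd2 (0.49). Fgf8 was most like Rspo3 (0.42), a Wnt agonist, Lin28a (0.39) and Ccne1 (0.38), and Fgf15 was like Acot7 (0.47) and Idh3a (0.41). Among receptors the values were 0.41 to 0.39 for Fgfr1 (Prr14, 2810474O19Rik, Fem1b), 0.44 to 0.43 for Fgfr2 (Mfap2, Pdzd8, 1600014C10Rik) and 0.44 to 0.38 for Fgfr3 (Clspn, B4galt6, Dhx9).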
